A study of Homo sapiens with 5 samples.

Results

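The comparison was the RNA recovered with hnRNPK against the RNA of the whole lysate in MCF10A cells, an established, non-tumorigenic line of human breast epithelium. RNA immunoprecipitation followed by sequencing (RIPseq) pulls a protein out of a lysate with an antibody and sequences the RNA that comes with it. The 3 libraries were 2 repeats of RIP with an hnRNPK antibody and 1 input, all from untreated parental MCF10A cells kept under 20 passages, out of 5 libraries in the series. The other 2 were an input and a FLAG antibody RIP from MCF10A cells expressing FLAG-CBFB, and they are used only for side-by-side values. No mock RIP was analysed here. The members of the comparison were the nuclear-encoded genes with at least 100 expected counts in the parental input, which were 12624 of the 56632 genes in each table. Genes of the mitochondrial genome, named MT-, were left out, and the FPKM of the remaining genes were rescaled to sum to 1000000 in each library. Every ratio below is the log2 of rescaled FPKM in an hnRNPK RIP repeat over the same value in the parental input, so that 1 is 2-fold.

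hnRNPK (heterogeneous nuclear ribonucleoprotein K) is an RNA-binding protein whose KH domains prefer stretches of cytosine in single-stranded RNA. It belongs to the poly(C)-binding proteins together with PCBP1 and PCBP2. It moves between nucleus and cytoplasm and is known for roles in transcription, splicing, mRNA stability and translation. In breast epithelial cells the study asked which transcripts associate with hnRNPK and with CBFB, the partner subunit of the RUNX transcription factors.

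The parental input held 61984255 expected counts outside the MT- genes, and the 2 RIP repeats held 15958095 and 12147530. The MT- genes took 11.2% of all expected counts in the input (Wilson 95% interval 11.17% to 11.19%, counting error only), 84.5% in repeat 1 and 86.6% in repeat 2. At least 100 counts were reached by 12624 nuclear genes in the input, 8777 in repeat 1 and 7980 in repeat 2. Of the 12 MCF10A markers, KRT5 reached 2206 rescaled FPKM in the input and KRT14 only 2.44, the lowest of the 12. Of the markers of other cell types, PGR, COL3A1 and VWF were at 0, and the highest were FOXA1 at 8.08, above KRT14, COL1A1 at 2.38 and CD68 at 1.08; the luminal markers summed to 8.98, 41.4 and 48.4 in the input and the repeats, and the leukocyte markers to 1.10, 7.22 and 8.86. Their part in the results was not tested. Among the 1568 genes with at least 1000 counts in both repeats, the log2 ratios of the repeats differed with an SD of 0.436 where counting alone gives 0.0393, so the repeats were not 1 library deposited again. The input was a single library that both repeats share. All p-values therefore measure only the spread between the 2 repeats, which the labels do not describe as separate cultures, and hold no error of the input.

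hnRNPK RIP recovered a long tail of strongly gained transcripts, SF3A2, PCBP2 and POLR2A among them, and lost a larger number by a smaller factor. A gene was called gained or lost where edgeR's quasi-likelihood test gave a Benjamini-Hochberg adjusted p under 0.05 and both repeats were past 2-fold in the same direction. Of the 12624 genes, 1558 were gained (12.3%) and 4929 were lost (39.0%). The gained genes had a median log2 ratio of 2.38, and 194 of them were above 16-fold (log2 ratio of 4) in both repeats. The lost genes had a median of -1.77, and only 32 of them were below -3 in both repeats. The repeats disagreed in sign for 1004 genes, and 11 genes were past 2-fold up in one repeat and past 2-fold down in the other.

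The zero of this scale lies above the typical transcript. The median gene had a log2 ratio of -0.972 in repeat 1 and -0.996 in repeat 2. A loss close to -1 is therefore the position of the median gene. When the ratios were centred on the median gene, 2542 genes were gained and 744 were lost, and all 1558 gained and 744 of the 4929 lost genes were shared with the calls above. Without dropping the MT- genes, on FPKM as deposited, 61 genes were gained and 11988 were lost. List medians below are therefore to be read against the median gene, -1.01 for the mean of both repeats, and counts of calls against 12.3% gained and 39.0% lost.

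**Figure D1:**
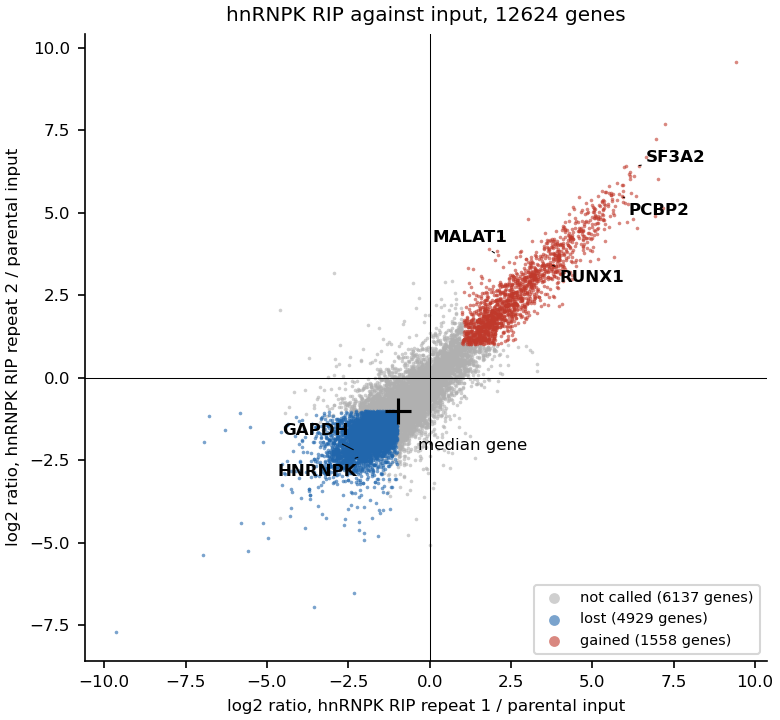
Each point is 1 of 12624 genes, with its log2 ratio to the parental input in hnRNPK RIP repeat 1 on the x axis and in repeat 2 on the y axis; red genes were gained, blue genes were lost and grey genes were not called. The cloud is centred near -1 on both axes (cross) and a tail of gained genes, SF3A2, PCBP2 and RUNX1 among them, follows the diagonal upward.

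Among annotated protein-coding genes and long noncoding RNAs, leaving out pseudogenes and read-through genes, the 10 most gained with at least 1000 counts in each repeat were TMEM8B, SF3A2, RAB3A, ZNF385A, CASP14, POLR2A, RIPOR1, VAMP2, CCNK and PRAF2. SF3A2, a subunit of the U2 small nuclear ribonucleoprotein that recognises the branch point in splicing, had 62.1 rescaled FPKM in the input, 5355 in repeat 1 and 5342 in repeat 2. Both repeats were far above the input, with log2 ratios of 6.43 and 6.43 (edgeR adjusted p = 1.51e-09). POLR2A, the largest subunit of RNA polymerase II, had 33.7 in the input, 2334 in repeat 1 and 2445 in repeat 2. Its mean log2 ratio was 6.15 ± 0.0475 (SD, n = 2; edgeR adjusted p = 1.51e-09).

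CCNK, the cyclin that activates CDK12 and CDK13 during transcription elongation, had 34.1 rescaled FPKM in the input against 2100 and 1963 in the repeats. RAB3A and VAMP2, a small GTPase and a SNARE protein of vesicle fusion, had 4.34 and 15.3 in the input, 286 and 1237 in repeat 1, and 372 and 690.5 in repeat 2. CASP14, a caspase of terminally differentiating keratinocytes, had 0.847 in the input from 136 counts, against 52.8 and 71.2 in the repeats. The remaining 4, RIPOR1, ZNF385A, PRAF2 and TMEM8B, had mean log2 ratios between 5.89 and 6.52. All 10 had higher values in both repeats than in the input, which the rule for a gained gene requires. TMEM8B and VAMP2 differed most between repeats, with SDs of 0.689 and 0.595.

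PCBP2, itself a poly(C)-binding protein related to hnRNPK, was the most abundant annotated protein-coding transcript outside the mitochondrial genome in both repeats. It rose from 607 rescaled FPKM in the input to 37476 in repeat 1 and 26932 in repeat 2 (mean log2 ratio 5.71 ± 0.337 SD, n = 2; edgeR adjusted p = 2.19e-09). Other abundant members of both RIPs were S100A11, a calcium-binding protein, CFL1, which severs actin filaments, and SH3BGRL3, PPDPF and GRINA. S100A11 had 2688 in the input, 21096 in repeat 1 and 22120 in repeat 2, and CFL1 had 1032, 15158 and 22276. YWHAE, a 14-3-3 protein, had 655 in the input, 10215 in repeat 1 and 8846 in repeat 2. S100A11, CFL1, SH3BGRL3, PPDPF and GRINA had mean log2 ratios of 3.01 to 5.69. All but PCBP2 and S100A11 were named after their values were seen.

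Only 1 nuclear gene exceeded PCBP2, and it cannot be separated from the mitochondrial genome. MTCO3P12, a copy of mitochondrial sequence in the nuclear genome, had 952 rescaled FPKM in the input against 51650 and 56365 in the repeats. All 7 tested pseudogenes of this kind were gained, with mean log2 ratios between 5.11 and 9.48. Their reads are shared with near-identical mitochondrial transcripts, whose part in these values was not tested. Dropping them as well before rescaling gave 1617 gained and 4448 lost genes.

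In the same classes, the 10 most lost genes with at least 1000 input counts were IFI30, RGPD5, NOPCHAP1, UACA, SNHG19, UQCR11, COX7B, MIF, FAM111B and RPS26. UQCR11 and COX7B, small subunits of respiratory complexes III and IV, had 270 and 391.97 rescaled FPKM in the input. They fell to 21.3 and 30.2 in repeat 1 and to 21.2 and 36.4 in repeat 2 (edgeR adjusted p = 1.31e-07 and 1.09e-07). MIF, a cytokine, fell from 1279 to 97.2 and 124. In these 3 genes the log2 ratios of the repeats had SDs of at most 0.247.

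Other strongly lost genes rested on few reads in the RIP. IFI30, a lysosomal thiol reductase, had 1819 counts in the input, 0 in repeat 1 and 7 in repeat 2, so its ratio in repeat 1 is a bound set at 3 counts. RGPD5, which belongs to a family of near-identical RANBP2-related copies, had 5 and 6 counts, and its share of reads is uncertain. FAM111B had 9 and 73 counts, with log2 ratios of -5.13 and -1.94, and SNHG19 had 12 and 29 counts. RPS26, a ribosomal protein gene with processed copies elsewhere in the genome, had 234 rescaled FPKM in the input and 12.3 and 33.4 in the repeats.

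**Figure D2:**
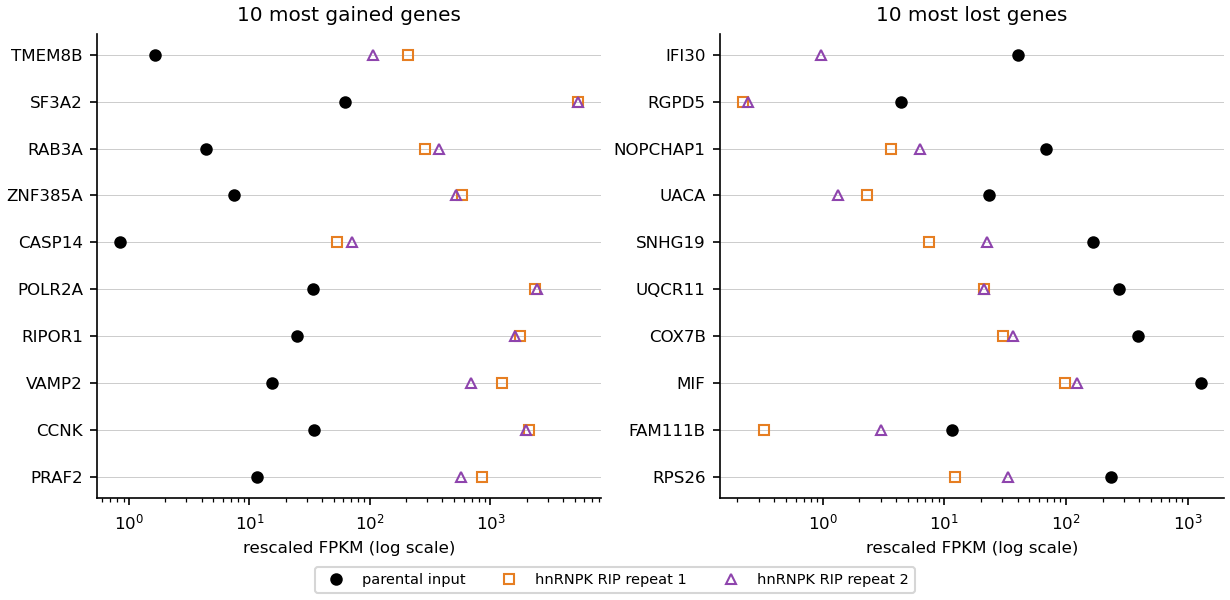
Rescaled FPKM on a log axis in the parental input (filled circles), hnRNPK RIP repeat 1 (squares) and repeat 2 (triangles) for the 10 most gained genes (left) and the 10 most lost genes (right). Input and RIP values do not overlap for any of these 20 genes, which the rule for a call requires. Over all tested genes, both repeats were above the input in 22.2% and both below it in 69.8%. IFI30 in repeat 1, at 0, is not drawn.

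By annotated class, 11460 of the tested genes were protein-coding, and 1392 of them (12.1%) were gained and 4657 (40.6%) were lost. Of the long noncoding RNAs, 81 of 533 (15.2%) were gained and 91 (17.1%) were lost, with a median log2 ratio of -0.57. The difference between the classes was not tested. Of 344 pseudogenes outside the mitochondrial kind, 37 (10.8%) were gained and 118 (34.3%) were lost.

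The list of hnRNP and poly(C)-binding proteins had 25 tested members with a median of -1.56. Of these, 4 were gained (16%) and 18 were lost (72%), beside 12.3% and 39.0% of all genes. PCBP2 was the highest, followed by HNRNPUL1, HNRNPC and PCBP1. HNRNPUL1 rose from 140 rescaled FPKM in the input to 2122 and 2342 in the repeats, and HNRNPC from 1040 to 3031 and 3121. PCBP1, an intronless relative of PCBP2, had 223 in the input, 498 in repeat 1 and 474.5 in repeat 2, a mean log2 ratio of 1.13 (edgeR adjusted p = 0.00898). The mRNA of HNRNPK itself was lost: it had 711 rescaled FPKM in the input, 168 in repeat 1 and 138 in repeat 2 (mean log2 ratio -2.23 ± 0.200 SD, n = 2; edgeR adjusted p = 1.04e-05). HNRNPL, the lowest of the list, had 382, 50.7 and 117.

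Splicing factors of the branch point complex stood on both sides. Of 12 tested genes for SF3A, SF3B and U2AF, 4 were gained and 7 were lost, with a median of -1.39. Beside SF3A2, the gained members were SF3B4, SF3A1 and U2AF2. SF3B4 rose from 77.5 rescaled FPKM to 3064 and 3936, and SF3A1 from 65.9 to 847 and 879. U2AF1, which binds the 3′ splice site next to U2AF2, was lost, from 238 to 38.9 and 51.1. Whether its reads were divided with any near-identical copy on hg19 was not tested. The partners U2AF1 and U2AF2 had mean log2 ratios of -2.42 and 2.25.

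Among 15 SR and SR-related factors, the 2 large matrix proteins SRRM1 and SRRM2 were gained and 11 were lost, with a median of -1.42. SRRM2 had 670 rescaled FPKM in the input, 4366 in repeat 1 and 4548 in repeat 2, while SRSF5 had 275, 60.0 and 59.6. The Sm and LSm proteins that form the core of small nuclear ribonucleoproteins had 13 of 15 members lost, none gained, and a median of -1.89. SNRPF was the lowest, with 205 in the input and 22.4 and 33.2 in the repeats. Of 24 nucleoporins, with a median of -1.85, 18 were lost, and the gained members were POM121, from 24.3 to 682 and 650, and NUP214.

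Transcripts for protein synthesis and energy metabolism were mostly lost. Among all protein-coding genes in 10 equal groups, the share lost rose with input counts, from 13.0% in the lowest group to 62.5% in the highest. A call also needs an adjusted p under 0.05, which genes with few reads can miss. In the lowest group the lower quartile of the mean log2 ratio was -1.36, so many genes past 2-fold down had no call there. The share lost fell with mRNA length, from 66.4% in the shortest group to 29.8% in the longest. The part of level and length in the lists below was not tested. Of 80 cytosolic ribosomal protein genes, 79 were lost and none was gained, with a median of -2.24 against -1.01 for all genes. RPS29 had 3008 rescaled FPKM in the input, 294 in repeat 1 and 316 in repeat 2, and RPL36A, the only member not called, had 2620, 1161 and 1627. Ribosomal protein genes have many processed pseudogenes, among which reads can be divided. Of 77 nuclear genes for the respiratory chain and ATP synthase, 75 were lost and none was gained (median -2.10). Mitochondrial ribosomal proteins had 66 of 76 lost (median -2.10).

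Some of these lists held a single gained member. MRPL4, a protein of the large mitochondrial ribosomal subunit, rose from 116 rescaled FPKM in the input to 336 and 390 in the repeats (mean log2 ratio 1.65 ± 0.153 SD, n = 2; edgeR adjusted p = 0.000990). PKM, the pyruvate kinase of the last step of glycolysis, rose from 1288 to 4957 and 8809, whereas 13 of 17 glycolytic enzymes were lost (median -1.68). GAPDH fell from 6508 to 1386 and 1382, and ENO1 from 2207 to 549 and 477. Of 36 proteasome subunits 29 were lost (median -1.87), of 23 chaperones 21 (median -1.93), and of 20 cytosolic aminoacyl-tRNA synthetases 15 (median -1.82), and none of these 3 lists had a gained member. HSPA4 and HSPA5, chaperones of the cytosol and the endoplasmic reticulum, had mean log2 ratios of -3.05 and -2.55.

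Translation factors were more divided, with 34 of 53 lost, 4 gained and a median of -1.38. EIF4G2, which supports translation initiation without the cap-binding protein, rose from 355.5 rescaled FPKM to 3009 and 3163. EIF1AD, EIF4G3 and EIF5A were the other gained members, with mean log2 ratios of 3.13, 1.99 and 1.65. EIF3I, a subunit of the initiation factor eIF3, was the lowest, at 419 in the input and 77.7 in each repeat. EIF4B, a cofactor of the eIF4A helicase, was not called and had log2 ratios of -0.63 and -1.04.

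Several lists of chromatin and transcription regulators lay above the median gene. Of 26 bromodomain proteins, acetyltransferases and coactivators, 10 were gained (38.5%) and 4 were lost, and the median was 0.52. CRTC2, a coactivator of CREB, had 36.0 rescaled FPKM in the input, 610 in repeat 1 and 833 in repeat 2. EP300 and CREBBP, paired histone acetyltransferases, had mean log2 ratios of 3.16 and 1.66. KAT5, an acetyltransferase of DNA repair, was the lowest, at 28.9, 9.78 and 8.01.

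Histone lysine methyltransferases had 12 of 28 gained and 7 lost, with a median of 0.02. PRDM2 rose from 6.82 rescaled FPKM to 201 and 160, and KMT2D, which methylates histone H3 at enhancers, from 16.8 to 343 and 321. SUV39H2, a heterochromatin methyltransferase, fell from 16.2 to 3.33 and 4.13. Of 17 demethylases, with a median of -0.83, 4 were gained (23.5%), led by KDM6B with 5.42 in the input and 197 and 154 in the repeats. Another 6 were lost (35.3%), led by KDM1A, a share close to the 39.0% of all genes. The counts on these lists came from a small number of genes each, and no list was tested against another.

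The medians of 3 multi-subunit complexes were -1.19 for SWI/SNF, -1.09 for Mediator and -1.76 for RNA polymerase II, against -1.01 for all genes. SWI/SNF remodelling subunits had 5 gained (23.8%) and 10 lost (47.6%) of 21, beside 12.3% and 39.0% of all genes, with BICRA at 5.46, ARID1A at 3.91 and PBRM1 at -2.07 in mean log2 ratio. Mediator had 5 gained (15.6%) and 17 lost (53.1%) of 32, with MED15 at 3.84 and MED7 at -2.54. RNA polymerase II had POLR2A as its only gained subunit, while 7 of 12 were lost. The other remodelling ATPases had SRCAP at 4.29, and corepressors and histone deacetylases ranged from BCORL1 at 5.22 to HDAC1 at -1.96.

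Of 17 RUNX, GATA, SMAD and TEAD factors, 8 were gained and 2 were lost, with the highest median of all lists, 0.65. RUNX1, the DNA-binding partner of CBFB, had 14 rescaled FPKM in the input, 192 in repeat 1 and 148 in repeat 2 (mean log2 ratio 3.59 ± 0.266 SD, n = 2; edgeR adjusted p = 5.21e-07). RUNX2 and GATA3, a luminal lineage factor, had mean log2 ratios of 4.24 and 3.57. The 2 lost genes were SMAD4, the common mediator of TGF-beta signalling, and CBFB itself. CBFB had 43.4 in the input, 20.0 in repeat 1 and 17.2 in repeat 2 (mean log2 ratio -1.22; edgeR adjusted p = 0.00891), close to the median gene, and its sign turned with TMM or DESeq2 size factors, to 0.30 and 0.36.

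Immediate early genes, which serum and growth factors induce within minutes, had 7 of 19 gained and 4 lost, with a median of 0.36. EGR1 rose from 78.1 rescaled FPKM to 5965 and 2198, EGR3 from 0.888 to 127 and 31.5, and FOSL1 from 55.3 to 2314 and 2763. EGR1 and EGR3 were both higher in repeat 1 than in repeat 2, with SDs of 1.02 and 1.42 on the log2 scale. FOS and JUN, the founding members of AP-1, were lost, with mean log2 ratios of -1.70 and -1.87. Of 16 KLF and SP factors, 6 were gained and only SP3 was lost, and SP2 rose from 6.73 to 316 and 312. Numbered zinc finger genes, the largest list, had 32 gained (8.86%) and 89 lost (24.65%) of 361, with a median of -0.88.

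Signalling lists were mixed. In the Notch pathway 6 of 23 genes were gained and 6 were lost (26.1% each, beside 12.3% and 39.0% of all genes), with a median of -0.015. NCSTN, a subunit of gamma-secretase, had 76.7 rescaled FPKM in the input, 1935 in repeat 1 and 1680 in repeat 2, and the receptor NOTCH3 had 3.17, 48.2 and 29.7, while the ligand JAG1 had 15.3, 5.44 and 3.15. In the NF-kappaB list, with a median of -0.23, BCL3 and RELA were gained, at 4.79 and 3.55 in mean log2 ratio, and NFKB1 was lost at -1.60. GSK3A, a kinase downstream of AKT, rose from 57.6 to 1785 and 2401, while MTOR fell from 29.9 to 7.0 and 9.34. The receptor EGFR had 44.2, 152 and 126, and its ligand AREG had 183, 50.5 and 47.1. Of 21 cell cycle genes, with a median of -0.88, only CDKN1A, an inhibitor of cyclin-dependent kinases, was gained (mean log2 ratio 2.79). CCNE2 and CCNB1 were lost with 7 others, 42.9% of the list and close to the 39.0% of all genes.

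Among structural genes of the epithelium, the list medians were -1.45 for large cytoskeletal linkers, -1.39 for keratins, -1.03 for integrins and laminins, -1.02 for desmosome and adherens junction proteins and -0.54 for collagens. CTNND1 and JUP, catenins of adherens junctions and desmosomes, rose from 79.6 and 132 rescaled FPKM to 1041 and 1133 in repeat 1 and to 873.5 and 774.5 in repeat 2, while CTNNB1 fell from 96.5 to 25.3 and 25.1. TLN1 and VCL, which link integrins to actin, had mean log2 ratios of 3.15 and 1.8 in a list where 10 of 16 large cytoskeletal genes were lost. ITGA3 was the only gained gene of 22 integrins and laminins, and ITGB1 the lowest. KRT80 and KRT5 were the gained keratins, at 3.34 and 1.25 in mean log2 ratio, and 7 of 16 were lost. These shares, 12.5% gained and 43.8% lost, were close to the 12.3% and 39.0% of all genes. Keratin genes resemble each other closely enough for reads to be divided among them.

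Among long noncoding RNAs, MALAT1, an abundant nuclear RNA of splicing speckles, had 20.2 rescaled FPKM in the input, 86.6 in repeat 1 and 265 in repeat 2. NEAT1, the scaffold of paraspeckles, had 114 in the input, 26.6 in repeat 1 and 166 in repeat 2, so that its log2 ratios of -2.10 and 0.54 had opposite signs and it was not called (edgeR adjusted p = 0.717). LINC00707 rose from 11.2 to 526 and 545, and CYTOR fell from 67 to 7.55 and 13.2. Of 25 host genes of small nucleolar RNAs, 19 were lost and none was gained, with a median of -1.72.

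**Figure D3:**
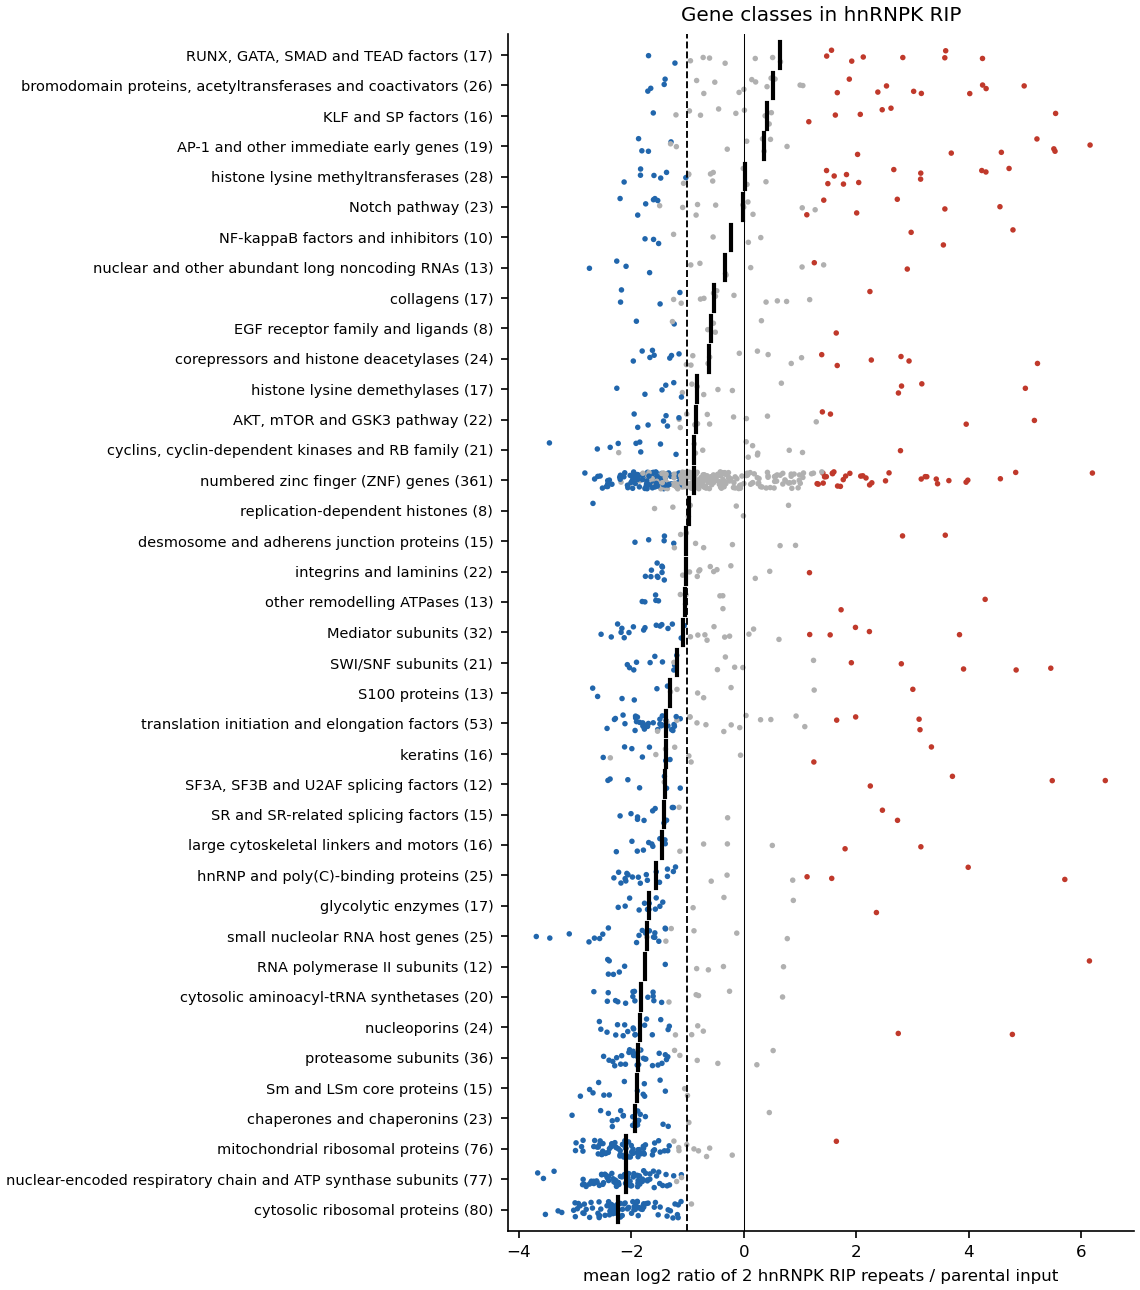
Mean log2 ratio of the 2 hnRNPK RIP repeats to the parental input (x axis) for each tested member of 39 gene lists (rows, with the number of members), ordered by median; red members were gained, blue were lost and grey were not called. Black bars are list medians, from -2.24 for cytosolic ribosomal proteins to 0.65 for RUNX, GATA, SMAD and TEAD factors, and the dashed line is the median of all genes, -1.01.

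The distance of a list from the median gene was compared over 9 combinations of scaling and input. Scalings that differ only by a factor per library leave this distance unchanged by construction. The distinct values therefore come mainly from the FPKM scale, the count scale and the other inputs. Relative to the median gene, the median of cytosolic ribosomal proteins lay between -1.23 and -1.10 on the log2 scale, and that of respiratory chain subunits between -1.12 and -0.75. RUNX, GATA, SMAD and TEAD factors lay 1.46 to 1.66 above it, and bromodomain proteins and coactivators 1.16 to 1.53 above it. Other lists moved more over these combinations. Host genes of small nucleolar RNAs ranged from -0.73 to -0.0012, desmosome and adherens junction proteins from -0.76 to -0.011, mitochondrial ribosomal proteins from -1.09 to -0.47 and proteasome subunits from -0.88 to -0.38. Replication-dependent histones, keratins, other remodelling ATPases, histone lysine demethylases, and the AKT and cyclin lists changed side of the median gene. The lists were put together with earlier results of these data known, so their counts are descriptions.

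Gained mRNAs were rich in runs of cytosine. A run was counted wherever 4 or more C followed each other (CCCC, on the transcript strand) in 1 GENCODE 29 transcript per gene, the one with the longest coding sequence among those the tables list. Of 11460 tested protein-coding genes, 11455 had such a transcript. A C run was present in 98.2% of these mRNAs, 99.9% of the gained and 96.5% of the lost ones. The median was 7.13 runs per kb in the 1392 gained mRNAs, 3.50 in all mRNAs and 2.54 in the 4656 lost mRNAs. Counted per molecule, gained mRNAs held a median of 24 runs and lost mRNAs 7.

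The stretches below show what such runs look like, as the 30 bases with most C in the mRNA of each gene (GENCODE 29 transcripts, GRCh38), with runs of 4 or more C in capitals. The first 7 are from gained mRNAs. They were chosen, after their values were seen, to show strong gains (SF3A2, RAB3A, CCNK, PCBP2), the study's transcript of interest (RUNX1) and the single gained members of lost lists (MRPL4, PKM). The last 5 are from lost mRNAs, picked from the lists of mitochondrial ribosomal proteins (MRPS36), glycolytic enzymes (ENO1, GAPDH), translation factors (EIF3I) and hnRNPs (HNRNPK).
SF3A2: gCCCCCgggaccaCCCCagctaCCCCCgcc
RAB3A: caccaccctgggaCCCCCCCCCCCCCCgcc
CCNK: ccacaccggCCCCCgCCCCCaCCCCCCtcc
PCBP2: cccgcccgcccgccctccgcccgcccgccc
RUNX1: cccacaccacccagCCCCCacgcccaaccc
MRPL4: ggCCCCCCgCCCCgCCCCCaCCCCgCCCCC
PKM: cctccagCCCCtgtcccaCCCCCttCCCCC
MRPS36: gcggctcgctcgcgCCCCggaaactgCCCC
ENO1: cacctgttggctacacagaCCCCtCCCCtc
EIF3I: cgtcctgtcaactcagctgccctctCCCCC
HNRNPK: ccctcgtcgaggaccacctCCCCCtcctcc
GAPDH: CCCCCaccacactgaatctCCCCtcctcac

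The SF3A2 stretch lies in the coding sequence of the last exon (chr19:2247970-2247999, plus strand), and its mRNA holds 45 C runs in 1963 bases, 22.9 per kb. Those of CCNK (chr14:99510288-99510317, plus strand), RUNX1 (chr21:34834469-34834498, minus strand), EIF3I (chr1:32228775-32228804, plus strand) and HNRNPK (chr9:83971954-83971983, minus strand) are also coding. Those of RAB3A (chr19:18196903-18196932, minus strand), MRPL4 (chr19:10259585-10259614, plus strand), PKM (chr15:72199603-72199632, minus strand), ENO1 (chr1:8861305-8861334, minus strand) and GAPDH (chr12:6538253-6538282, plus strand) lie in 3′ UTRs, and those of PCBP2 (chr12:53452151-53452180, plus strand) and MRPS36 (chr5:69217788-69217817, plus strand) in 5′ UTRs.

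The MRPL4 stretch held 24 C of 30, a number that only 66 of 11455 mRNAs reached (0.576%), and its mRNA had 13.6 C runs per kb, while MRPS36, lost, had 15 C in its richest stretch and 2.33 runs per kb. PKM had 21 C in its richest stretch and 6.62 runs per kb, and ENO1 had 15 and 5.05. These pairs were picked as examples, and exceptions exist: GAPDH had 10.1 C runs per kb and was lost in both repeats, and RUNX1 was gained with 4.02 per kb, close to the median mRNA. The PCBP2 stretch holds 23 C but no run of 4. A match to these letters does not show a binding site.

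Over all protein-coding genes, the share of gained mRNAs rose with the density of C runs at each step. When the 11455 mRNAs were ordered by C runs per kb and divided into 10 equal groups, 15 of 1146 genes (1.31%) were gained in the poorest group and 455 of 1146 (39.7%) in the richest. The share of lost mRNAs went from 64.7% to 13.3%. The median log2 ratio went from -1.53 to 0.38 in repeat 1 and from -1.58 to 0.48 in repeat 2. The difference between the richest and the poorest group, 1.99 for the mean of the repeats, was chosen after seeing the data. It ranged from 1.73 to 2.41 over the other scalings, filters and inputs. A factor per library cancels in this difference, so scalings that differ only by such factors give the same value by construction.

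**Figure D4:**
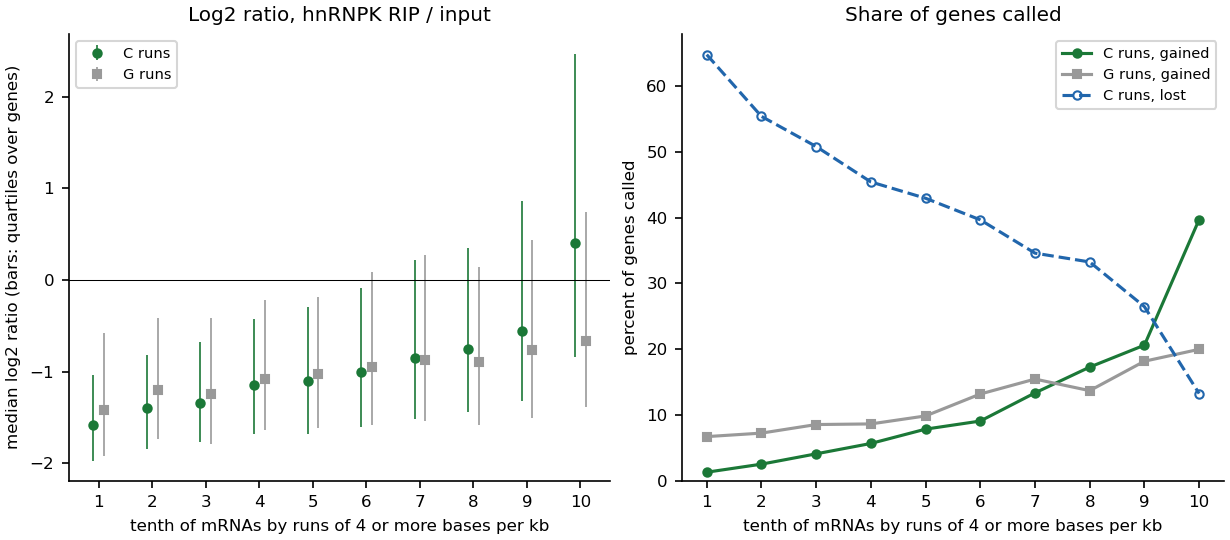
Left, median log2 ratio of hnRNPK RIP to input (mean of repeats; bars span the quartiles over genes) in 10 equal groups of protein-coding mRNAs ordered by runs of 4 or more C per kb (green) or of 4 or more G per kb (grey). Right, percent of genes gained and lost in the same groups; the share gained rises from 1.31% to 39.7% along C runs and from 6.72% to 20.0% along G runs.

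GC content moved with the ratio too. Gained mRNAs had a median GC content of 55.2% and lost mRNAs 47.0%, and this difference came with 28.7% against 22.3% C but only 26.04% against 24.7% G. For a view at similar GC content, the mRNAs were divided into 5 equal groups by GC content and then into 3 equal groups by C runs per kb. C content (Spearman's correlation 0.305 with the mean log2 ratio), length and input level were not matched in these groups. Their part was not tested. In the middle GC group, between 46.4% and 52.4% GC, 26 of 764 genes (3.403%) were gained where C runs were fewest and 199 of 764 (26.05%) where they were most frequent. The same split by G runs gave 78 (10.2%) and 90 (11.8%) genes. In the group with the highest GC content the shares were 6.02% and 38.9% by C runs and 18.2% and 21.1% by G runs. In the group with the lowest GC content, the share rose from 1.05% to 10.6% with C runs and went from 6.15% to 3.53% with G runs.

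**Figure D5:**
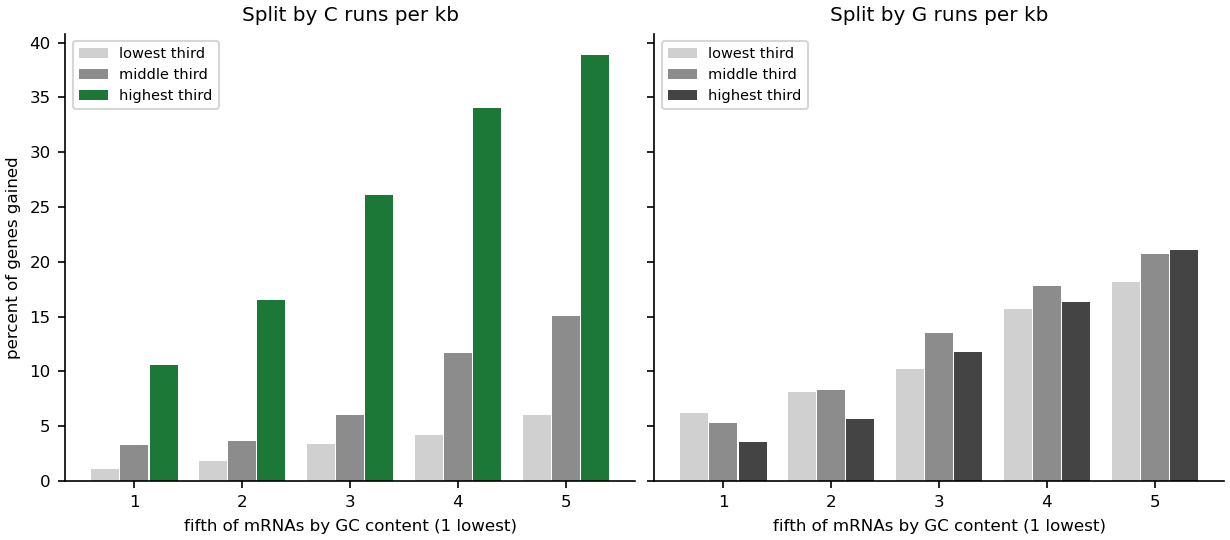
Percent of protein-coding genes gained in hnRNPK RIP in 5 equal groups of rising GC content (x axis), each divided into 3 equal groups by C runs per kb (left) or G runs per kb (right). Within every GC group the share is highest where C runs are most frequent, up to 38.9%, and the 3 bars of G runs stay within 5 percentage points of each other.

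C runs were denser in every part of the gained mRNAs. The median density was 6.13 runs per kb in the coding sequence of gained mRNAs against 2.43 in lost ones, 6.66 against 1.41 in the 3′ UTR and 8.76 against 5.29 in the 5′ UTR, counting regions of at least 100 bases. Across genes, Spearman's correlation between C runs per kb and the mean log2 ratio was 0.371 (n = 11455 genes, 0.322 in repeat 1 and 0.402 in repeat 2), and it was 0.479 for the number of C runs per mRNA and 0.179 for G runs per kb. Genes are not independent replicates, and these values are descriptions. Gained mRNAs were also longer, with a median of 3494 bases against 2544 in lost mRNAs, while both had a median of 9 exons. Input level moved with the ratio too: Spearman's correlation was -0.320 with rescaled FPKM in the input, and the part of level in these relations was not tested.

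The richest stretch of 30 bases is a second measure of the same sequences. Among 1353 mRNAs whose richest stretch held at most 14 C, 22 (1.63%) were gained, and among 1471 with at least 21 C, 489 (33.2%) were gained. Of the gained mRNAs, 55.4% had a stretch with 20 or more C, against 11.6% of the lost mRNAs and 23.6% of all. In the richest group by C runs per kb, 152 mRNAs were nevertheless lost and 539 were not called, and in the poorest group 15 were gained.

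FLAG-CBFB RIP, set against the input of its own cells with 1 library each and hence with no test, is given side by side. Past 2-fold were 911 genes upward (7.22%) and 2523 downward (20.0%), with a median gene at -0.53. SF3A2, PCBP2 and POLR2A had log2 ratios of 6.35, 4.48 and 3.77 there, and RUNX1 had 2.11. Cytosolic ribosomal proteins had a median of -0.55, close to the median gene there, against -2.24 in hnRNPK RIP. HSPB1, a small heat shock protein, had a log2 ratio of 2.38 in FLAG-CBFB RIP, while the hnRNPK repeats gave 0.33 and 0.57. Along the 10 groups of C runs per kb, the median in FLAG-CBFB RIP was -0.57 in the poorest and 0.03 in the richest group. Between the inputs of both cell populations, 1009 genes were past 2-fold upward in the FLAG-CBFB cells (7.99%) and 759 downward (6.01%), also with 1 library each. Cell population, antibody and library differ together between these experiments and cannot be told apart.

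The rule's threshold of 100 input counts left ratios resting on few reads at its edge. Just inside it, MATN3, RILP and FGFBP3 had 100 input counts and log2 ratios of -0.95, -1.08 and -2.57 in repeat 1 and -0.56, -1.15 and -1.73 in repeat 2, where the -2.57 of FGFBP3 is a bound set at 3 counts, since it had 0 counts in repeat 1. Just outside it, PCDHB2, SCHIP1 and C4orf19 had between 99.4 and 99.98 counts and log2 ratios of 1.99, -2.24 and -0.69 in repeat 1 and 1.45, -2.79 and -0.83 in repeat 2.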

How the data were processed

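The deposited files were RSEM gene tables, 1 per library. The authors made the expected counts and FPKM from TruSeq mRNA libraries with Trimmomatic, STAR and RSEM on hg19, per the submitters' processing notes. Versions, strand setting and annotation release are not given in the sources used here, so reads of a gene and its antisense partner cannot be told apart. Groups came from the sample titles. Symbols, biotypes and transcripts came from GENCODE 29 (GRCh38) by gene or transcript ID, and 275 tested genes kept their ID only.

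Genes named MT- were dropped, and the deposited FPKM of the others were rescaled to sum to 1000000. Genes with at least 100 expected counts in the parental input were tested. The ratios carry no pseudocount, and a 0 was set to 3 counts. Expected counts, rounded, were tested with edgeR 4.0.16 (quasi-likelihood, R 4.3.3) with offsets that put fold changes on the rescaled FPKM scale, and p-values were adjusted by Benjamini-Hochberg over all 12624 genes. DESeq2 1.42.0, other scalings, count minimums, inputs, a pseudocount of 1 and leaving out each repeat were alternatives. Precision is limited by the RIPs, with 15958095 and 12147530 nuclear counts against 61984255 in the input. Sequence measures were made in Python 3.11.15 with pandas 2.3.3 and numpy 2.4.6, and figures with matplotlib 3.10.9.

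The members and the gene lists were chosen with earlier results of these data known. The genes named were the 10 most gained (at least 1000 counts in each RIP) and the 10 most lost (at least 1000 counts in the input) among protein-coding genes and long noncoding RNAs with a symbol, leaving out pseudogenes and read-through genes, up to 3 extremes of each list, 7 genes of the study and common references (HNRNPK, CBFB, RUNX1, EIF4B, GAPDH, NEAT1, MALAT1), and the genes next to the count minimum. Not all of them are described. Some items are not reported here. PCBP1, HNRNPUL1, HNRNPC, SF3B4, SF3A1, U2AF2, SRRM1, NUP214, EIF4G2, EIF4G3, EIF5A, EP300, CREBBP, ARID1A, FOSL1, FOS, GATA3, RELA, NOTCH3, KRT5, JUP, VCL, LINC00707 and the most abundant RIP transcripts were added after their values were seen.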

Additional observations from a re-analysis of the deposited data

Results flagged for a closer look

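EGFR, the receptor for epidermal growth factor, went up in both hnRNPK RIP repeats, with log2 ratios of 1.78 and 1.51, and down in the single FLAG-CBFB RIP, with a log2 ratio of -1.21 against its own input. It stood out because the experiments had opposite signs on the rescaled values. With the MT- genes kept in the rescaled total, its mean log2 ratio in hnRNPK RIP was -2.31, so that it no longer went up there. The difference was not tested, since FLAG-CBFB RIP has 1 library and the experiments differ in cells, antibody and input.

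Genes of the mitochondrial genome, which the ratios leave out, made up 84.51% and 86.58% of all expected counts in the hnRNPK RIP repeats and 11.2% in the parental input. They stood out as a signal above the input in data that no comparison used.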

How the results depend on the processing

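The calls depended on where zero was set. Against 1558 gained and 4929 lost genes, TMM factors gave 2613 and 998, DESeq2 size factors 2720 and 824, and centring on the median gene 2542 and 744. Rescaling FPKM with the MT- genes kept in the total gave 61 and 11988. With at least 1000 input counts, 1011 genes were gained, and a log2 ratio past 2 left 876 and 882. The median log2 ratio over all tested genes, -1.01, was -1.46 with nuclear count totals, -0.11 with TMM, -0.051 with DESeq2 factors, -0.026 when centred, -0.91 without mitochondrial pseudogenes, -4.97 with the MT- genes kept in the rescaled total, -0.94 for protein-coding genes, -0.0048 with at least 1 count, -0.89 with at least 20, -1.15 with at least 1000, -1.12 and -1.09 with the FLAG-CBFB cell input and both inputs, and -0.82 with a pseudocount of 1. Leaving out each repeat gave medians of -0.996 and -0.972. For 10 equal groups of mRNAs, the median log2 ratio of the tenth richest in C runs minus the poorest, 1.99, was 1.86 with count totals, TMM and DESeq2 factors, 2.41 and 2.215 with the FLAG-CBFB cell input and both inputs, 1.73 with the pseudocount, and 1.92 to 2.07 leaving out a repeat. TMM and DESeq2 factors turned the sign of CBFB, to 0.30 and 0.36. Among lists with a median past 2-fold in both repeats, they turned only other remodelling ATPases, to 0.029 and 0.091. Sign changes of lists nearer 0 were not counted, though some occurred. The NF-kappaB list, at -0.23, lay at least 0.29 above the median gene under each scaling, so its median turned positive with these factors.

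Of 2535 values of 128 named genes under the alternatives, 2357 kept their call or stayed uncalled, and 113 lost and 25 gained a call. Sign changes of genes uncalled in both settings were not counted as changes and are among the 2357. In the other 40, a called gene changed sign or an uncalled gene was called the opposite way. All but 2 of these 40 log2 ratios came from FPKM rescaled with the MT- genes kept in the total. Those log2 ratios were MRPL4 -2.31, EIF1AD -0.82, EIF4G2 -0.84, EIF4G3 -1.97, EIF5A -2.31, PKM -1.60, PSMD11 -3.44, HSPB1 -3.50, PCBP1 -2.83, HNRNPC -2.39, SF3A1 -0.25, U2AF2 -1.71, SRRM1 -1.49, SRRM2 -1.22, NUP214 -1.21, EP300 -0.80, CREBBP -2.29, ARID1A -0.049, MED15 -0.12, KLF7 -1.34, RUNX1 -0.37, GATA3 -0.38, RELA -0.41, NOTCH3 -0.38, EGFR -2.31, CDKN1A -1.17, KRT80 -0.62, KRT5 -2.71, S100A11 -0.95, ITGA3 -2.79, CTNND1 -0.37, JUP -1.13, TLN1 -0.81, VCL -2.16, COL6A1 -1.71, MALAT1 -1.05, SNHG26 -3.18 and YWHAE -0.099. The causes of these changes were not tested. The log2 ratio alone, the adjusted p alone and leaving out a repeat only relax the call, so no called gene could lose its call there. Leaving out a repeat was judged by the log2 ratio, without a test. No paired analysis was possible because the input has 1 library, and hence only 1 replicate number occurs in both groups. Depth limits the ratios of lost genes: 36 and 28 tested genes were listed at 0 in the repeats.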
